A study of Triticum aestivum with 10 samples.

Results

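The transcripts described here were raised in cold-grown shoots of a necrotic wheat line, and the most leaf-rich ones were left out. The readings of both lines in cold leaf lay close together. For 53 of the 125 probes no cold leaf array read well above background. The transcripts were chosen by measured values, with a rule of 4 conditions. First, both necrotic shoot arrays had to read a probe as well above background. Its level had to be at least 3 log2 units (8-fold) higher in the necrotic than in the wild-type shoot at 4 °C. Its level in the necrotic leaf at 4 °C had to lie within 0.5 log2 units of that in the wild-type leaf at 4 °C. Its level in the wild-type leaf had to exceed that in the wild-type shoot by less than 5 log2 units. These conditions held for 125 of the 37826 probes on each array, or 0.33%. Levels are given throughout as log2 signal after scaling each array to its own 75th percentile, and a group level is the mean of 2 arrays.

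The plants were synthetic hexaploid wheat, that is, lines in which the cross of a tetraploid wheat and Aegilops tauschii behind bread wheat had been made anew. One line had the wild-type phenotype and the other showed cold-induced hybrid necrosis, and all plants first grew for 3 weeks at 23 °C. The 5 groups of 2 arrays were necrotic shoots holding the shoot apical meristem after 6 weeks at 4 °C, wild-type shoots of the same kind, necrotic leaves after 12 weeks at 4 °C, wild-type leaves after 12 weeks at 4 °C, and necrotic leaves taken at 23 °C with no cold. Wild-type leaves at 23 °C were not analysed here. RNA was measured on Agilent wheat arrays with a single dye, Cy3. Each line stands for its phenotype alone, so that necrosis and any other difference between the lines cannot be told apart, and shoots and leaves differ in weeks of cold as well as in tissue. The labels do not say whether the 2 arrays of a group came from separate plants, so p-values measure only the spread between these samples.

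Hybrid necrosis is a disorder of some crosses in which gene copies inherited from the parents act against each other, and tissue yellows and dies as in an immune response. In its cold-induced form in wheat, growth at low temperature sets off the symptoms. The shoot apical meristem is the group of dividing cells that forms leaves, stem and later the ear, and it sits at the base of the young shoot, wrapped in leaf bases.

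On the 10 arrays 28487 to 32630 probes were well above background, which is called detected below, and the correlation of replicate arrays over probes was 0.994 to 0.997. The arrays lay on 3 slides. The 4 shoot arrays shared a slide and a scan, the 4 arrays of cold leaves another, and the 2 arrays at 23 °C a slide of their own. Each difference between the lines is therefore a difference within a slide. The files and the table of wheat reference genes do not pair the probes with genes, no member carries a gene name, and leaf or meristem markers could not be looked up. Members are thus described by their levels, and named by the contig or clone their probe was drawn from.

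The shoot difference that chose the members was read as a description only. Their level had a median of −1.77 in the necrotic shoot, with a range from −7.62 to 3.94, against −5.94 in the wild-type shoot, with a range from −10.74 to 0.14. The median over all probes was −2.45 for necrotic and −2.53 for wild-type shoots. The members' median therefore lay near the middle of the array in the necrotic shoot and well below it in the wild-type shoot. In the necrotic shoot, members detected on every cold leaf array had a median of −0.55, and those detected on none −4.56. The difference between the lines had a median of 3.64 log2 units and reached 9.81, and it lay under 4 for 78 members, from 4 to 5 for 27 and at 5 or more for 20. In bulk tissue such as this, more RNA per cell and more cells of the kind that holds it cannot be told apart.

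Both necrotic shoot arrays lay above both wild-type shoot arrays for all 125 members, as a rule of this size nearly requires. The smallest distance between the lowest necrotic and the highest wild-type array was 1.89 log2 units. Replicate arrays of the members differed by a median of 0.062 and at most 1.84 for necrotic shoots, and by a median of 0.12 and at most 1.85 for wild-type shoots. In the fit of limma over all 33045 probes with a value in every group, 32.3% were higher and 36.2% lower in the necrotic shoot at an adjusted p under 0.05, and 1.92% were detected and at least 3 log2 units higher. All 125 members were among those higher at that p, and nothing is read from this count since the rule used the contrast.

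**Figure D1:**
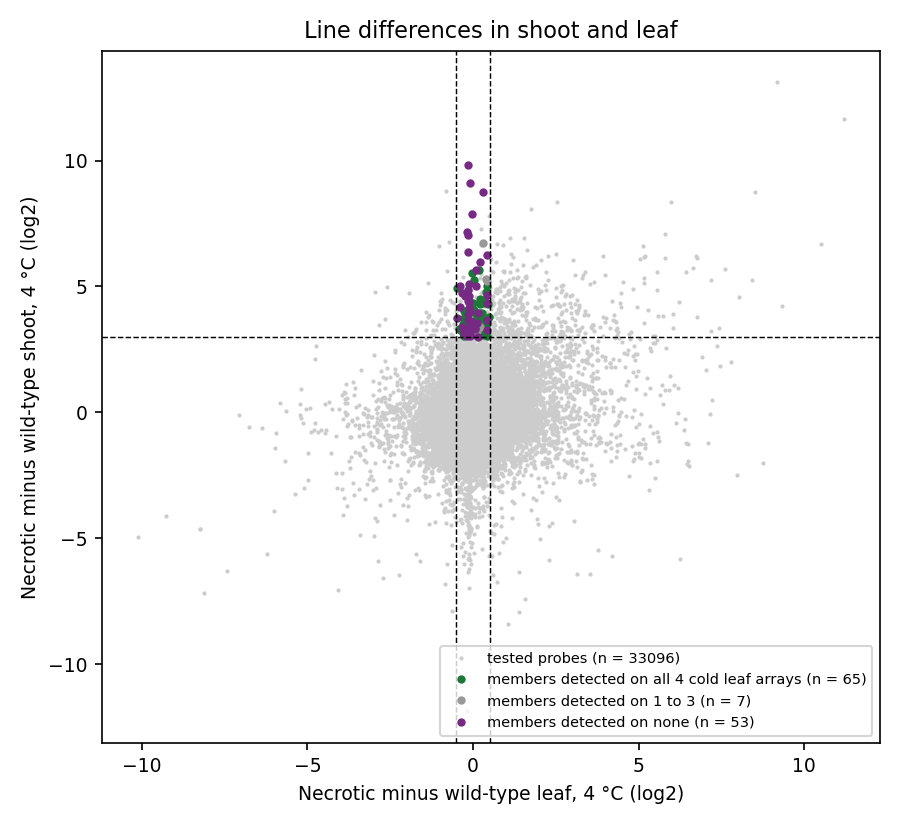
Difference between the necrotic and the wild-type line in leaf (horizontal axis) and in shoot (vertical axis), both at 4 °C and in log2 units, for 33096 probes detected in at least 1 group. Dashed lines mark the thresholds of 3 in shoot and ±0.5 in leaf. The 125 members, coloured by detection in cold leaf, lie in the narrow column above 3.

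The thresholds cut through a continuous spread of values. The lowest shoot differences among the members were 3.00 and 3.02, and the nearest probes left out stood at 2.996 and 2.99. In leaf the members nearest the upper limit differed by 0.495 and 0.45 and the nearest probes outside it by 0.503 and 0.52. At the lower limit the values were −0.498 and −0.496 inside and −0.54 and −0.55 outside. The excess of wild-type leaf over wild-type shoot was 4.84 and 4.82 for the last members inside and 5.02 and 5.03 for the first probes outside. Of 635 detected probes raised by at least 3 in the necrotic shoot, 380 lay above the leaf limits, 59 below them and 196 within. Of those 196, 71 were leaf-rich by 5 or more and so left out.

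The members differed in whether they were detected in cold leaf, a flag the rule did not read, although its limits used the same leaf signals. On the 4 arrays of cold leaves, 65 members (52.0%) were detected on every array, 53 (42.4%) on none and 7 on 1 to 3. Among all 32117 probes detected on both necrotic shoot arrays, 88.2% were detected on all 4 cold leaf arrays and 6.02% on none. These shares cannot be set against each other as a result. Probes dim in both leaf groups tend to fall within the leaf limits, a wide shoot difference favours probes that are dim elsewhere, and the limit on leaf-rich probes removes only probes with leaf signal. With the 71 leaf-rich probes put back, all of which were detected on all 4 cold leaf arrays, the share undetected in cold leaf was 27.0%, still under the leaf limits.

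**Figure D2:**
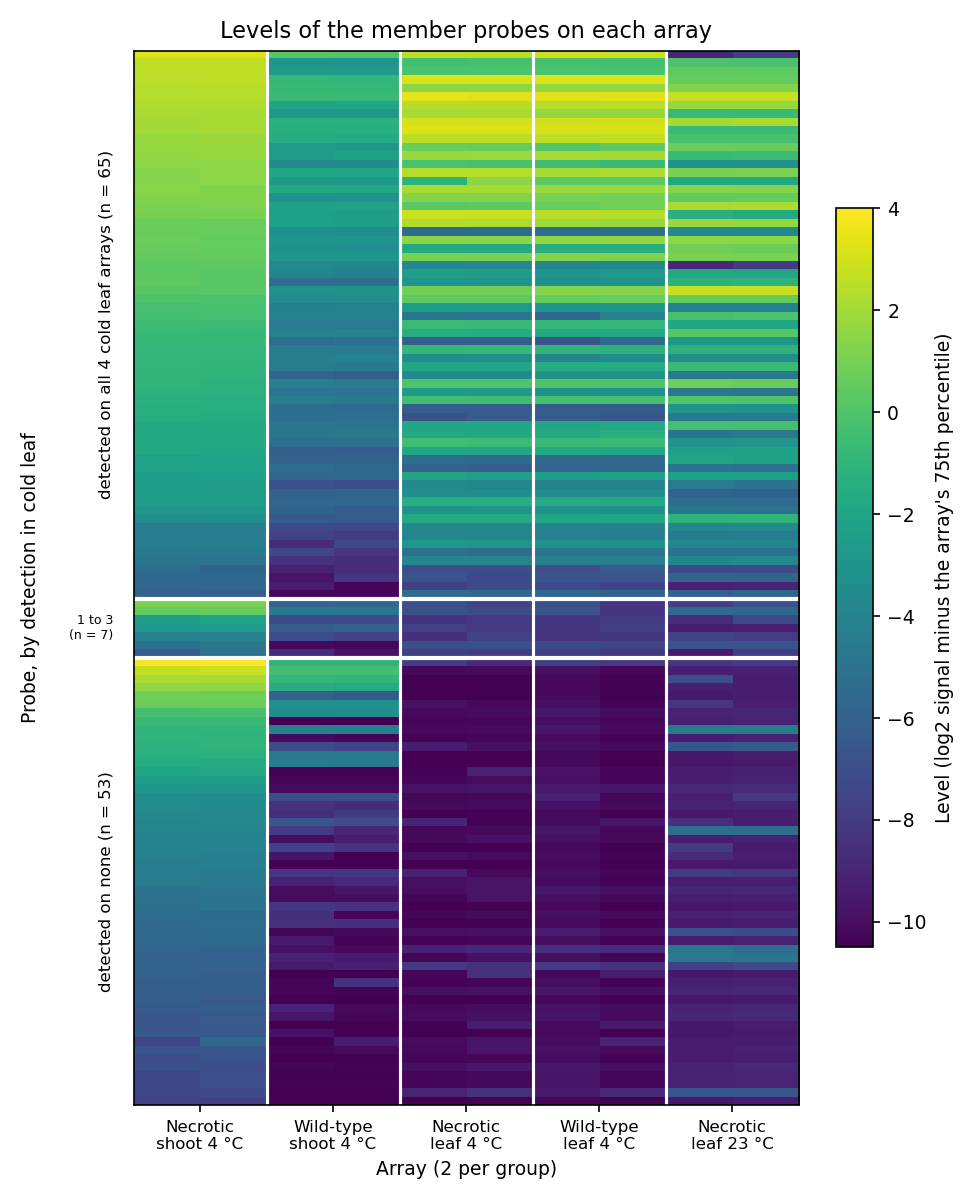
Level of each of the 125 members (rows) on each of the 10 arrays (columns, 2 per group), as log2 signal minus the array's 75th percentile, in blocks by detection on the cold leaf arrays and sorted by the necrotic shoot level. The upper block of 65 members has signal in leaf of both lines, and the lower block of 53 members is at low levels in the cold leaf of both lines, with 14 members detected on both wild-type shoot arrays and 6 on both arrays of the necrotic leaf at 23 °C.

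Of the 53 members undetected in cold leaf, 37 were also undetected on both wild-type shoot arrays, 14 were detected on both and 2 on 1 of them. The necrotic shoot was then the only cold group in which the 37 were detected on both arrays. Their level there had a median of −5.82, from −7.62 to −0.66. For a probe not detected in the wild-type shoot a fold is only a lower limit, taken against the higher of the probe's own signal and the weakest detected signal of each array. These limits ran from 1.75-fold to 218-fold with a median of 6.07-fold, and 15 of the 37 exceeded 8-fold. For the rest of the 37 the 8-fold difference asked for by the rule therefore rests on wild-type signals too dim to be measured.

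The widest contrast among them was that of wheat0130Contig4791, singled out after its values were seen. It stood at −0.65 and −0.66 on the necrotic shoot arrays, against −10.48 and −10.46 on the wild-type shoot arrays, where it was not detected. It was undetected in leaf too, at −10.33 and −10.26 on the arrays of necrotic leaf and −9.97 and −10.33 on those of wild-type leaf at 4 °C, and at −9.24 and −9.14 in the necrotic leaf at 23 °C. Between the lines the shoot level of this probe was at least 218-fold higher in the necrotic one, and of the 10 arrays only those of the necrotic shoot detected it.

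The 14 members undetected in cold leaf but detected on both wild-type shoot arrays were brighter. Their median level was −0.62 for necrotic and −4.38 for wild-type shoots, and they were 8.03-fold to 131-fold higher in the necrotic shoot. The largest shoot difference among all 77 members detected on both arrays of both shoots was that of MUGEST2003_23lib_Contig17305_981. Its level was 0.79 on both necrotic shoot arrays, against −6.06 and −6.42 on the wild-type shoot arrays, a 131-fold difference. It was undetected on all 6 leaf arrays, at −10.49 to −9.41. The probe with the next largest shoot difference, named after a GenBank record that no table used here describes, stood at 1.03 on both necrotic shoot arrays against −5.80 and −5.63 on the wild-type shoot arrays (107-fold), and some of the cold leaf arrays detected it. The member with the highest level in the necrotic shoot, wheat0130Contig3640, chosen after its values were seen, was one of the 14. It stood there at 3.83 and 4.05, against −1.09 and −1.09 in the wild-type shoot, and was undetected in every leaf group with levels of −8.74 to −7.74.

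The 65 members with signal in cold leaf of both lines showed another pattern. Their median level was −0.55 for necrotic and −4.20 for wild-type shoots, beside −1.64 for necrotic and −1.56 for wild-type leaves at 4 °C. The wild-type leaf exceeded the wild-type shoot by 1 log2 unit or more for 56 of them. The excess had a median of 3.03 over the 65 and a highest value of 4.84. Choosing probes with a wild-type shoot far below the necrotic shoot favours such an excess. The wild-type leaf and shoot also differ in slide and in weeks of cold, so that enrichment in leaf is not read from it. In the necrotic shoot 31 members were within 1 log2 unit of the wild-type leaf, 25 were more than 1 above it and 9 more than 1 below it. Of the 65, 58 were detected on both wild-type shoot arrays, and these were 8.13-fold to 50.03-fold higher in the necrotic shoot. The 7 members detected in some cold leaf arrays only were 2.32 to 8.59 log2 units higher in the necrotic shoot than in the wild-type leaf. These values come from arrays the rule used and carry no test.

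**Figure D3:**
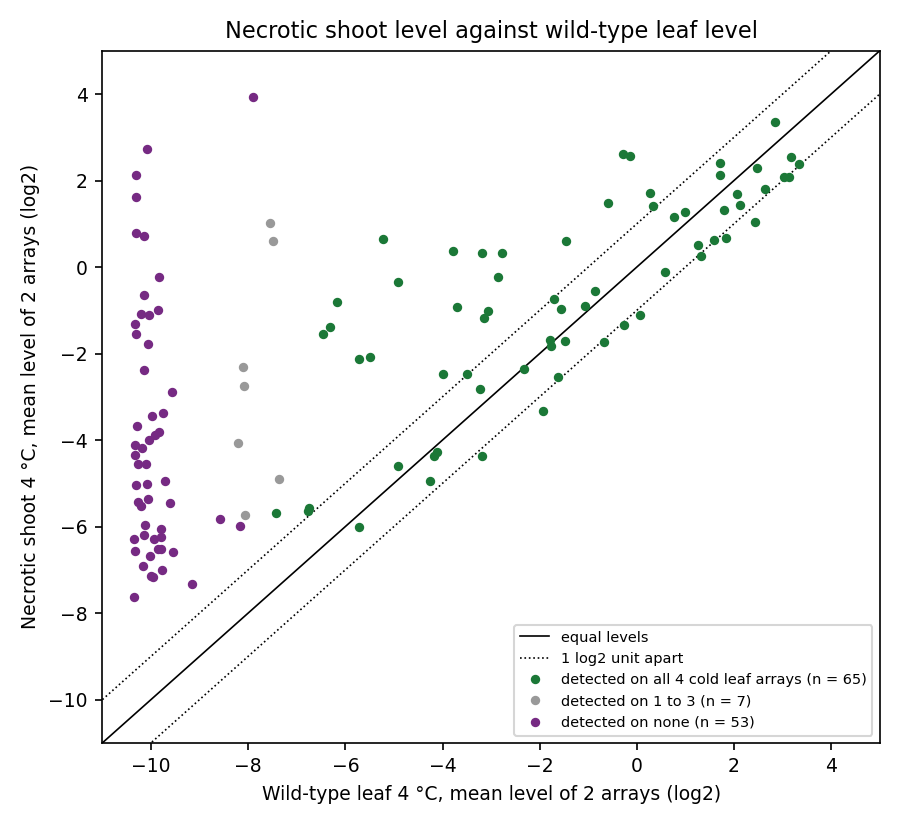
Mean level in the necrotic shoot (vertical axis) against mean level in the wild-type leaf (horizontal axis), both at 4 °C and in log2 units relative to the array's 75th percentile, for the 125 members coloured by detection on the 4 cold leaf arrays. Of the 65 detected on all 4, 31 lie within 1 log2 unit of the line of equal levels and 25 above that band, while all 53 undetected in cold leaf lie more than 1 unit above the line.

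The leaf difference that the rule limited to 0.5 was small but not zero for every member. It had a median of −0.063 over the members and −0.045 over all tested probes. For the 53 members detected on no cold leaf array it compares readings near background. In the fit 22 members were higher and 13 lower in the necrotic leaf, while 24.3% of all probes were higher and 29.4% lower (53.7% in either direction), so that the rule set a limit on size and not on detectability. Both counts depended on single arrays and on the samples fitted: without either of the necrotic leaf arrays 7 members were lower, and without the second wild-type leaf array 20. With only the leaf groups at 4 °C in the fit 13 members were higher and 7 lower. Among probes detected on all 10 arrays, 21 of 56 members were higher and 15 lower. Counts of members are not set against the shares of all probes. The rule limited this difference, and 53 members were detected on no cold leaf array. Among the 65 members with leaf signal, all 4 differences between a necrotic and a wild-type leaf array lay within 0.5 for 50. The wild-type leaf arrays were more than 0.5 apart for 3 of them (4.62%), as they were for 4.62% of all probes with signal on those 4 arrays.

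The leaves of the necrotic line at 23 °C were the only arrays the rule did not use. They ask whether the members' level in the necrotic leaf depended on the cold. The comparison shares the necrotic leaf arrays at 4 °C with the rule, which used them relative to the wild-type leaf only, and its groups lay on different slides, so that the temperature, the weeks of growth, the slide and the scan of the arrays cannot be told apart. Of the 125 members 62 were detected on both arrays at 4 °C and on both at 23 °C, 7 on both at 4 °C only, 6 on both at 23 °C only, and 50 on both arrays of neither.

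Among the 62 members measured at both temperatures, 31 were higher and 21 (33.9%) lower at 4 °C at an adjusted p under 0.05 in limma, and 10 did not pass. Of all 27779 probes detected on both arrays of both groups, 32.9% were higher and 47.2% lower. At least 2-fold, 18 of the 62 members were higher and 14 lower. Both shares were larger than those of all such probes, 10.6% and 17%, a difference that was not tested. The median difference was 0.21 for the members, against −0.17 over all such probes. More members were thus higher than lower in the cold necrotic leaf, and more probes at large were lower than higher. The split depended on the background correction: with normexp 28 of the 62 were higher and 26 lower, beside a median over all such probes of −0.33. With quantile normalization the counts were again 31 and 21. The replicate arrays of both temperatures did not overlap for 59 of the 62 members, as for 92.0% of all such probes.

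The largest rises in the cold among these members were those of wheat0130Contig7344 and wheat0130Contig8666. wheat0130Contig7344 stood at 2.81 and 2.83 in the necrotic leaf at 4 °C, against −1.36 and −1.61 at 23 °C, a difference of 4.31 (SE 0.096, limma adjusted p = 7.62e-08) or 19.8-fold. wheat0130Contig8666 stood at 3.25 and 3.21 at 4 °C, against −0.68 and −0.73 at 23 °C, a difference of 3.94 (SE 0.038, limma adjusted p = 3.76e-09). For both the cold arrays lay far above those at 23 °C. In shoots wheat0130Contig7344 stood at 1.04 and 1.06 in the necrotic line, against −2.29 and −2.48 in the wild-type line. wheat0130Contig8666 stood at 2.07 and 2.08 in the necrotic shoot, against −1.40 and −1.41 in the wild-type shoot. The necrotic shoot was more than 1 log2 unit below the cold leaf of its own line for both.

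The largest falls in the cold among the members measured at both temperatures were those of wheat0130Contig10813 and wheat0130Contig7563. wheat0130Contig10813 stood at −4.80 and −4.82 in the necrotic leaf at 4 °C, against −0.25 and −0.091 at 23 °C, a difference of −4.64 (SE 0.41, limma adjusted p = 4.7e-05). wheat0130Contig7563 stood at −6.17 and −6.18 at 4 °C, against −2.82 and −2.80 at 23 °C, a difference of −3.37 (SE 0.34, limma adjusted p = 9.61e-05). Both were far lower in the cold on both arrays. The SEs pool the spread of all groups, and for both probes most of it came from the wild-type leaf arrays (SD 1.03 and 0.85). In shoots wheat0130Contig10813 stood at −0.40 and −0.28 in the necrotic line, against −4.07 and −4.09 in the wild-type line. Its necrotic shoot was near the level of the leaf at 23 °C. wheat0130Contig7563 stood at −0.84 and −0.77 in the necrotic shoot, against −5.25 and −5.07 in the wild-type shoot, and its necrotic shoot lay well above the leaf at either temperature. The leaf difference between the lines is uncertain for both. For wheat0130Contig10813 the wild-type leaf arrays at 4 °C read −5.64 and −4.19, and for wheat0130Contig7563 −6.77 and −5.56, on either side of the necrotic leaf. The sign of the leaf difference turned with the wild-type array left out. For wheat0130Contig10813 it was −0.62 without the first and 0.84 without the second. For wheat0130Contig7563 it was −0.62 without the first and 0.59 without the second.

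**Figure D4:**
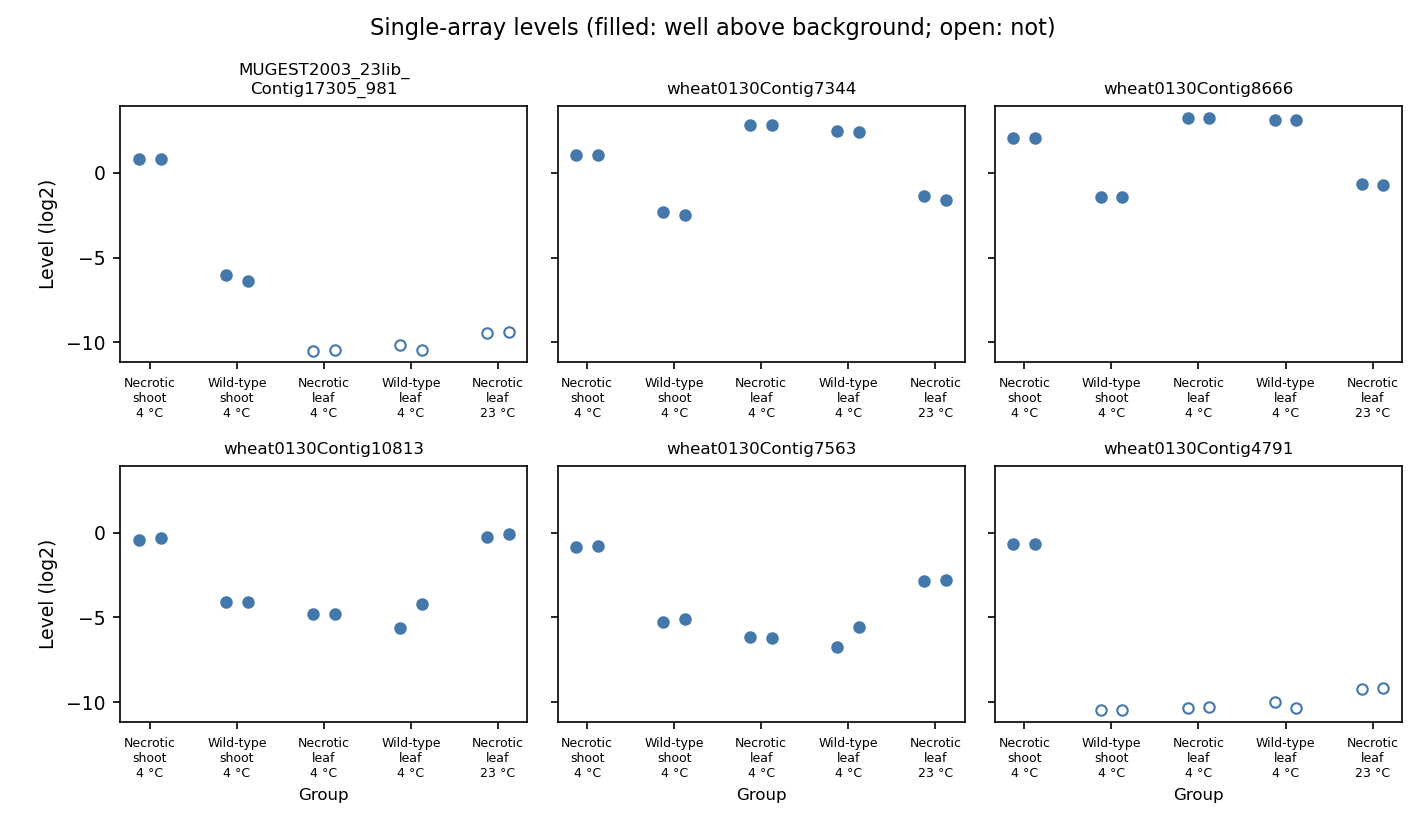
Level (log2 signal minus the array's 75th percentile) of 6 members on each of the 10 arrays, by group, with filled circles for groups in which both arrays were well above background and open circles for groups in which neither was. wheat0130Contig4791 is detected in the necrotic shoot alone, wheat0130Contig7344 and wheat0130Contig8666 rise in the cold leaf, and wheat0130Contig10813 and wheat0130Contig7563 fall in it.

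The level of the necrotic shoot can be set beside both leaf temperatures. For each member, however, its distances from the leaves differ by the temperature difference that formed the sets. That difference, 4 °C minus 23 °C, had a median of 1.32 for the 31 that rose and −1.67 for the 21 that fell. For the 31 that rose, the necrotic shoot minus the necrotic leaf at 4 °C had a median of −0.11, and minus the leaf at 23 °C a median of 1.99. For the 21 that fell, the same medians were 2.66 against the cold leaf and −0.17 against the leaf at 23 °C. The necrotic shoot was nearer the leaf at 23 °C than the cold leaf for 8 of the 31 and for 13 of the 21. Since the members were chosen for a high necrotic shoot level, nothing is read from which leaf it lies nearer. The wild-type shoot lay below the cold necrotic leaf by a median of 4.07 for the members that rose, and by 2.31 for those that fell. These are levels set side by side across slides, with no test, and the spread over single members was wide, from −1.77 to 2.55 against the cold leaf for those that rose and from −1.69 to 7.67 for those that fell.

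**Figure D5:**
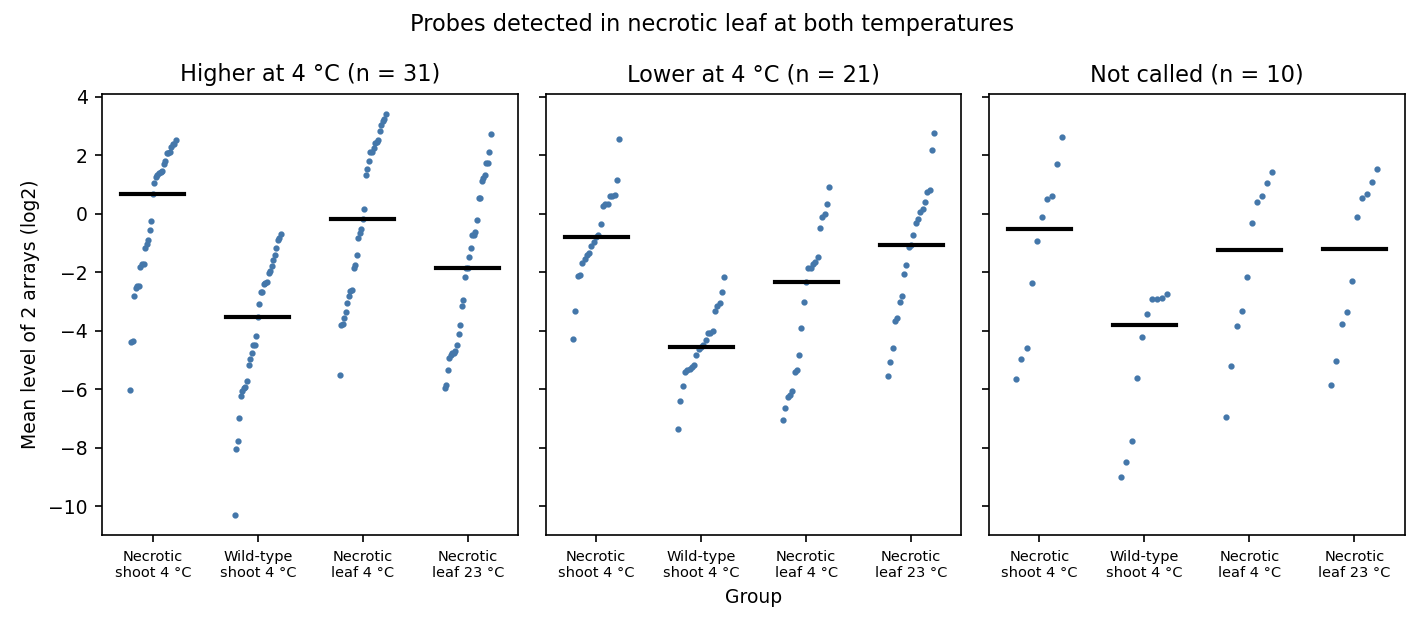
Mean level (log2 signal minus the array's 75th percentile) in necrotic shoot, wild-type shoot, necrotic leaf at 4 °C and necrotic leaf at 23 °C of the 62 members detected in the necrotic leaf at both temperatures. Points are members sorted within a group and bars are medians, for 31 members higher at 4 °C, 21 lower and 10 not called. The wild-type shoot has the lowest median in each panel, and the higher leaf median is that at 4 °C on the left and that at 23 °C in the middle, as the split requires.

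Of the 7 members detected on both arrays at 4 °C only, 3 were higher at 4 °C in the fit. For 1 of the 3, wheat0130Contig8751, at a mean of −7.46 at 4 °C, the weakest detected level at 23 °C was higher than that, so that no rise is shown. MUGEST2003_23lib_Contig15912_1218, at a mean of −3.75 at 4 °C against −8.40 at 23 °C, where neither array detected it, was at least 10.9-fold higher. These 3 probes are named after their values were seen. The third, wheat0130Contig8979, stood at 2.54 and 2.47 in the cold necrotic leaf against −8.93 and −7.99 at 23 °C, where it was not detected, and was at least 833-fold higher (limma adjusted p of the fit = 1.04e-07). The wild-type leaf at 4 °C was at a high level too, at 2.84 and 2.83. In shoots wheat0130Contig8979 stood at 3.38 and 3.35 in the necrotic line, against 0.19 and 0.090 in the wild-type line, so that every cold group detected it. Conversely 6 members were detected in the necrotic leaf at 23 °C and on no cold leaf array of either line. All 6 were lower at 4 °C in the fit, with lower limits on the fold from 2.89 to 12.4. Grouping by detection favours such calls here and among the 7 above, so that nothing is read from their counts. The largest limit was that of MUGEST2003_23lib_Contig10394_1067, not detected in the cold necrotic leaf at −10.19 and −10.05, against −4.54 and −4.53 at 23 °C (limma adjusted p of the fit = 2.41e-07). It stood at −1.02 and −0.97 in the necrotic shoot, against −4.19 and −4.19 in the wild-type shoot. Members undetected in cold leaf were thus not all undetected in leaf.

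The other 50 members were detected on both arrays of neither temperature, and the fit called 39 of them lower and 1 higher at 4 °C. With them the counts over all 125 members were 35 higher and 66 lower, beside 31.6% and 45.2% of all probes tested. These calls concern signals near background and were not counted as changes. Among all 6843 probes undetected on every necrotic leaf array the median difference was −0.96, and among the 47 members of that kind −0.98. The weakest detected level was −7.20 on average at 23 °C and −8.16 in the cold necrotic leaf, so that dim probes read higher at 23 °C on this scale.

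Of the 71 leaf-rich probes that met the other conditions, 70 were measured in the necrotic leaf at both temperatures, and 42 of them were higher and 14 lower at 4 °C. All 71 were detected in cold leaf, which their own rule nearly requires, and 18 were undetected in the wild-type shoot, against 44 of the 125 members. No difference between these sets was tested.

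Some members shared a clone or contig name with another probe; those named in this and the next paragraph were chosen after their values were seen. For 19 members the array held 1 more probe whose name differed only in a leading r, in the letters p and m, or in a final number. In 2 cases both probes were members. The probes MUGEST2003_23lib_Contig20910_p_370 and MUGEST2003_23lib_Contig20910_m_314 stood at −0.26 and −0.21, and at −5.53 and −5.32, on the necrotic shoot arrays, against −3.45 and −3.31, and −8.43 and −8.47, in the wild-type shoot. The probes rwhkp17o05_609 and whkp17o05_25 were 19.7-fold and 20.8-fold higher in the necrotic shoot.

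For the other 15 of these members the further probe was not a member. Of these 15 probes 8 were detected on both necrotic shoot arrays, and 4 of the 8, detected on both wild-type shoot arrays as well, had a shoot difference of 2.45 to 3.81 log2 units and leaf differences of −0.35 to 0.26. Another 2, rwhyd21k11 and whdl23m22, stood at −6.65 and −6.62, and at −5.83 and −5.89, in the necrotic shoot, and were not detected on both wild-type shoot arrays, so that their difference was not measured in full. The highest was rwhr8h16, at 1.59 and 1.57 in the necrotic shoot against −2.24 and −2.24 in the wild-type shoot, beside its partner whr8h16 at −1.31 and −1.39 against −4.43 and −4.65. The probe rwhr8h16 was left out as leaf-rich. The remaining 2 of the 8, whr10c21 and whh3n22, did not follow their partners: whr10c21 stood at −5.20 and −5.18 in the necrotic shoot, against −4.24 and −5.25 in the wild-type shoot, and whh3n22 at −7.01 and −7.08 against −6.02 and −6.75. The other 7 probes were not detected on both necrotic shoot arrays, and 6 of them on neither. What the letters stand for is not given in the sources used here, and probes of a pair need not measure the same strand or the same transcript.

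The members were spread over the forms of probe names on the array. Contigs named wheat0130 made up 40.8% of the members and 36.9% of all probes, contigs named MUGEST 23.2% and 20.1%, clones named wh or rwh 28.0% and 32.6%, and contigs named whfl or whsh 5.60% and 5.98%. Probes named after a GenBank gi number made up 2.40% of the members and 0.629% of the array. Clones named MUG, 3.48% of the array, had no member. Clones named whr or rwhr, a form singled out after the members were seen, gave 9 members (7.20%) beside 1.85% of all probes. These shares carry no test.

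Over the 5 group means the median member stood at −1.77 for necrotic and −5.94 for wild-type shoots, at −6.96 for necrotic and −6.76 for wild-type leaves at 4 °C, and at −5.55 in the necrotic leaf at 23 °C. In leaf this median member lay between the medians of members detected on every cold leaf array and of those detected on none. Among the 32117 probes detected in the necrotic shoot, the pattern most like it was that of MUGEST2003_23lib_Contig10087_248 (Pearson's r = 0.9994 over 5 group means), a member at −6.23 and −6.17 in the necrotic shoot against −10.29 and −8.44 in the wild-type shoot. The next was whsc3l22_354 (r = 0.9991), which was no member. It stood at −5.94 and −8.16 in the necrotic shoot, against −9.11 and −9.99 in the wild-type shoot, so that its arrays of 1 group differed by more than 2 log2 units. Both probes were undetected in the other 4 groups, so that this likeness is one of background readings beside 1 group with signal. Over 5 points, 39 of the 125 probes most like the median member were themselves members. In all, 47 members had an r of at least 0.9 with the median pattern. The rule used 4 of the 5 group means, and the median pattern is the members' own. An overlap is thus built in, and nothing is read from either count.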

How the data were processed

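Agilent scanner tables of 10 arrays (1 per sample, 2 per group) were used. Per the file headers they were made with Feature Extraction 10.5.1.1, while the submitters' processing notes list 9.5. The deposited intensity is the software's processed signal, per the file headers; flag columns hold yes or no per spot. The authors' series matrix holds equal intensity values.

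Control spots were left out, and each array's log2 intensity was reduced by the log2 of its 75th percentile. Spots marked as outliers (12 to 143 per array, and 3 members on any array) were missing in the fit but kept for the rule. Probes detected on both arrays of at least 1 group were tested (33096, of which 33045 had a value in every group), by limma 3.58.1 (lmFit, eBayes; R 4.3.3) with 1 mean per group over 10 arrays, 5 residual and 1.56 prior degrees of freedom, and Benjamini-Hochberg adjustment over all probes, two-sided, at 0.05. The fit was tested on simulated data. No spot of a member was saturated. The members and lists were chosen with earlier results of these data known. Without gene names, the lists of gene groups and tissue markers could not be applied to the members. The rule for named probes took the 2 largest shoot differences, rises and falls with temperature among members detected in both groups, with arrays that do not overlap, and the 2 probes most like the median member; others are marked as chosen after their values were seen. Precision is limited by 2 arrays per group. Same-numbered arrays did not deviate together (r −0.011 to 0.063 over 10 pairs of groups). Alternatives were normexp, quantile and median scaling, filters, flags, samples in the fit, a replicate block and leaving out arrays; normexp used the median spot signal, since the files hold no mean signal.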

Additional observations from a re-analysis of the deposited data

How the results depend on the processing

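The number of members, 125, was 115 with quantile normalization (92 shared), 117 with scaling to the median (111 shared) and 128 without the detection filter, and 120 to 137 with 1 array left out. It was 74 with normexp, of which 47 were among the 125; the cause was not tested. It was 56 among probes detected on all 10 arrays, 77 with detection on both wild-type shoot arrays, 405 and 47 at shoot thresholds of 2 and 4, and 82 and 202 at leaf limits of 0.25 and 1. Leaving out probes with outlier flags, added after seeing the data, left 122.

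Of all 125 members the fit called 35 higher and 66 lower at 4 °C. With 1 array left out these counts were 32 to 35 and 58 to 64, and over all probes 9731 to 9838 and 13690 to 14121, against 10450 and 14951. With normexp 30 members were higher and 87 lower, beside 7924 and 21184 of all probes. The lower count was 40 with quantile normalization, 20 among probes detected on all 10 arrays and 21 with detection at both temperatures. In shoot 123 to 125 members were higher with 1 array left out and 56 among probes detected on all 10 arrays. In leaf, with only its groups fitted, 13 were higher and 7 lower, and with 1 array left out 14 to 20 were higher and 7 to 20 lower.

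With the replicate block, for which same-numbered arrays gave no ground (r over 0.1 in 0 of 10 pairs of groups), 35 and 66 calls over all 125 members became 33 and 66, and 29 of the 62 members measured at both temperatures were higher and 21 lower, against 31 and 21 without it. No alternative reversed a called difference of a named probe, but some became smaller. The temperature difference of MUGEST2003_23lib_Contig17305_981, undetected in leaf, went from −1.03 to −0.080 with quantile normalization and no longer passed. The shoot difference of MUGEST2003_23lib_Contig10087_248 went from 3.17 to 0.43 with normexp. Signals near background limit the folds of the 44 members undetected in the wild-type shoot.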
